A study of Mus musculus with 2 samples.

Results

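Type I interferon-stimulated genes are the genes that cells switch on when type I interferon binds its receptor. A list of 35 such genes was followed here through the immune cells of a mouse brain tumour, and 33 of the 35 were among the 32285 genes of the count tables. Mx1 and Mx2 were not analysed here. The members were taken by their symbols alone, from a list chosen with earlier results of these data known. For each cell type and library, their transcripts were summed over barcodes with at least 300 genes and under 10% mitochondrial transcripts. Levels are given as CPM, the captured transcripts of a gene per 1000000 captured transcripts of that cell type.

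The cells came from tumours of CT-2A, a mouse glioma cell line, 14 days after implantation into the brain, and were selected on magnetic beads for the leukocyte surface protein CD45. One library came from the wildtype genotype and 1 from the Glut5 KO genotype, in which the fructose transporter gene Slc2a5 is targeted. Both groups carried tumours of this line. The sources used here do not give the alleles, strain, age or number of the animals. Slc2a5 had 384 unique molecular identifiers (UMIs, each standing for 1 captured transcript molecule) in the wildtype library and 1 in the Glut5 KO library.

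Depth was 116105873 UMIs over 11495 wildtype barcodes and 96851696 over 12165 Glut5 KO barcodes. After filtering, 11473 and 12112 barcodes remained, with medians of 8682 and 6524 UMIs. The libraries shared 188 barcode names, 1.64% and 1.55% of each. Since each genotype had 1 library, there was no replicate check and no test, and genotype and library cannot be told apart. Intervals in brackets are exact 95% intervals and cover counting error only. Each library held barcodes with female-specific Xist transcripts alone (2891 wildtype, 3473 Glut5 KO) and barcodes with Y-linked transcripts alone (3620 and 2646), while the titles name a mouse in the singular. Each library therefore held cells of more than 1 animal, and sex and animal cannot be told apart. Neither kind of transcript was found in 4520 wildtype and 5555 Glut5 KO barcodes, and both kinds in 442 and 438. These barcodes enter no result by sex, and the part of depth in the sex calls was not tested. The results are given for all barcodes and then for female and male barcodes alone.

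Type I interferon, secreted after a cell senses foreign or misplaced nucleic acid, acts through the receptor pair IFNAR1 and IFNAR2. The receptor's kinases phosphorylate STAT proteins, among them STAT2, which acts with IRF9 in a complex that binds the interferon-stimulated response element (ISRE) near target genes. The products block viral replication, sense more nucleic acid, and feed back on the pathway, and in brain tumours microglia, infiltrating myeloid cells and dendritic cells are known to make them.

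Promoter windows of 300 bases, 250 before and 50 after a transcription start, were read from RefSeq (GRCm38.p6) for 26 of the 33 members. The ISRE core was searched on both strands as TTTC, any 2 bases and TTTC again, which reads GAAA, any 2 bases and GAAA on the other strand, with overlapping matches allowed. It was present in 15 of the 26 members (57.7%), and in 3.99% of all 27025 genes with a window (3.44% of 32851 windows). The element that is tied to interferon-gamma, GAS, was searched as TTCNNNGAA, where N is any base, and was present in 4 of the 26 (15.4%), and in 9.55% of all genes with a window (8.30% of windows). Some GAS and ISRE matches can overlap, and a match describes the letters of the window, not a bound site. The 30-base stretches of members described below are printed on the gene's own strand, with the bases of the core in capitals, to show how the match is kept or repeated between families:
Isg15, chr4:156200871-156200900, minus strand: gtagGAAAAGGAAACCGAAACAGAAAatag
Oas1a, chr5:120907523-120907552, minus strand: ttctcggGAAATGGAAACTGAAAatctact
Oas3, chr5:120777715-120777744, minus strand: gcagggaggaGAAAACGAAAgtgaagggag
Bst2, chr8:71537580-71537609, minus strand: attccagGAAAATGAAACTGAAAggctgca
Stat2, chr10:128270266-128270295, plus strand: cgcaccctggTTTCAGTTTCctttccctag
Rsad2, chr12:26456553-26456582, minus strand: ctggtccaacTTTCATTTTCagaaaacaga
Ifit3, chr19:34583397-34583426, plus strand: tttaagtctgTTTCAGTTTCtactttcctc
Ifit3b, chr19:34607793-34607822, plus strand: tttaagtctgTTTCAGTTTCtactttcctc
Ifit1, chr19:34640794-34640823, plus strand: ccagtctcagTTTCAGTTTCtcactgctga
Ifit1bl1, chr19:34602053-34602082, minus strand: actctgtaggTTTCATTTTCtgtaggttgg
The Isg15, Oas1a and Bst2 stretches each hold overlapping copies of the core. The Ifit3 and Ifit3b stretches are the same 30 bases, 122 and 154 bases before the RefSeq start. For neither gene did a transcript of the GENCODE annotation begin with the 50 bases after that start. Among the printed members only Isg15 and Rsad2 had such a transcript, so the distances hold for the RefSeq starts alone. At the best shift without gaps, 32 bases, the windows of this gene pair were 75% identical over 268 bases. The windows differ in the length of a run of C, and without gaps the bases past it are out of step. The 75% is therefore not a measure of how far the promoters differ. Among members with a window, the median log2 ratio of Glut5 KO over wildtype in monocytes and macrophages was 0.60 for the 15 with the core and 0.82 for the 11 without it. In microglia these medians were 0.35 and 0.38, so members with the core in this window did not have the higher median in either cell type.

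Cell types were assigned by a per-barcode gate on marker genes, and a ratio was taken in the 8 leukocyte types with at least 100 barcodes in each library. Of the barcodes kept, 9199 wildtype and 9682 Glut5 KO barcodes fell into a gated type. Monocyte/macrophage barcodes numbered 4496 and 4193, and microglia, the resident macrophages of the brain, 1993 and 1622. The dendritic types were cDC1 (318 and 306), cDC2 (804 and 957), migratory (306 and 251) and plasmacytoid dendritic cells (103 and 245), and the lymphoid types were T cells (456 and 771) and NK cells (347 and 391). P2ry12 and Sparc were among the 10 leading genes of microglia, Lyz2 and Fn1 of monocytes and macrophages, and Siglech and Ccr9 of plasmacytoid dendritic cells. These genes are markers of the gate itself, so their lead follows from the assignment and is no separate check of the names. Limits of the gate lay within 0.05 of 949 monocyte/macrophage and 301 microglia barcodes.

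Monocytes and macrophages held more transcript of every one of the 33 members in the Glut5 KO library, and in this cell type the interval of each lay above 0. The median log2 ratio was 0.65, against −0.07 over all 13595 genes with at least 20 UMIs. At least 1.5-fold higher were 20 of the 33 members and none was 1.5-fold lower, where 6.44% of all genes were that much higher and 8.19% that much lower. Over all barcodes microglia moved less: their median was 0.33, against −0.05 over all genes. Of the 33 members, 6 were at least 1.5-fold higher there (4.77% of all genes) and 0 that much lower (7.56%). By sex the microglial median was 0.69 in female and −0.23 in male barcodes. The microglial values by gene that follow are over all barcodes and do not show this split, which is given further below. All 33 members had at least 20 UMIs in each of the 8 cell types.

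**Figure D1:**
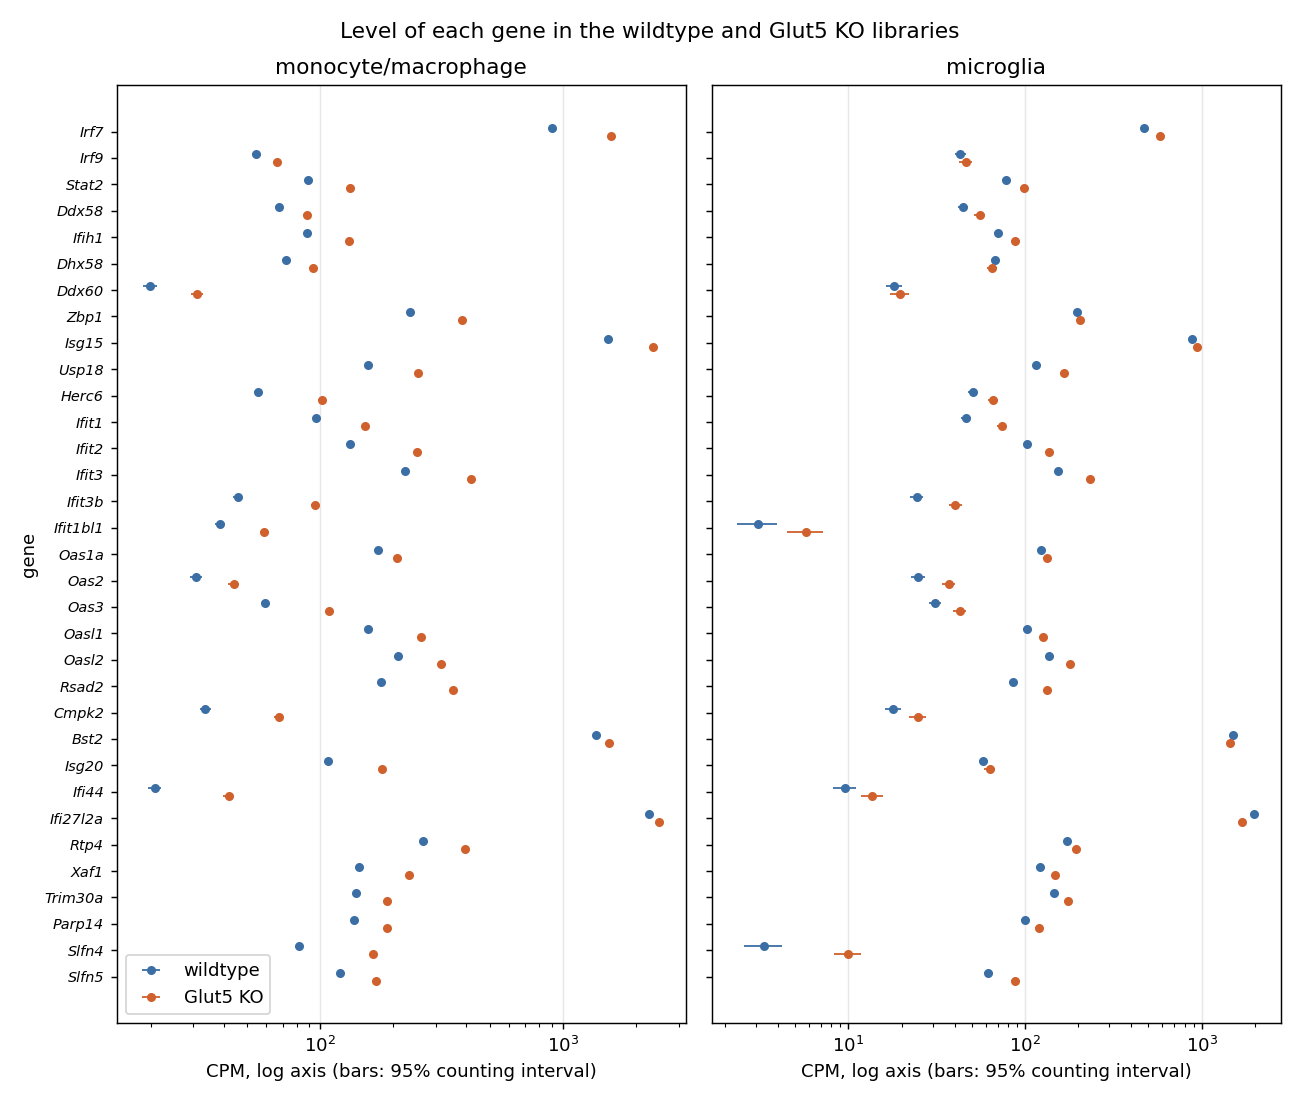
Level of each of the 33 genes in CPM (log axis) in monocyte/macrophage barcodes (left) and microglia (right), 1 point per library (blue wildtype, orange Glut5 KO), with bars for the 95% counting interval. In monocytes and macrophages every Glut5 KO point lies to the right of the wildtype point, while in microglia those of Bst2, Ifi27l2a and Dhx58 lie to the left.

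The transcription factors of the response were unevenly placed. Irf7, the factor that amplifies interferon production, stood in monocytes and macrophages at 899 CPM in wildtype and 1583 CPM in Glut5 KO, a log2 ratio of 0.82 [0.80 to 0.84]. In microglia it stood at 472 and 579 CPM (0.29 [0.25 to 0.34]). Irf7 was thus higher in the Glut5 KO library in both, with the larger difference outside microglia. Stat2, a partner in the ISRE-binding complex, stood at 89.3 and 133 CPM in monocytes and macrophages (0.57 [0.51 to 0.63]) and at 77.7 and 99.1 CPM in microglia (0.35 [0.24 to 0.46]). Irf9, the DNA-binding partner, differed least of the 3, at 54.4 and 66.3 CPM in monocytes and macrophages (0.29 [0.20 to 0.37]) and at 43.1 and 46.1 CPM in microglia, where the interval of 0.10 [−0.05 to 0.25] held 0.

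Of the 5 sensors of nucleic acid, 2 were at least 1.5-fold higher in monocytes and macrophages (6.44% of all genes) and none in microglia (4.77%). Zbp1, which binds Z-form nucleic acid, had 234 CPM in wildtype and 383 in Glut5 KO monocytes and macrophages (0.71 [0.68 to 0.75]), against 198 and 206 CPM in microglia (0.06 [−0.01 to 0.13]). Zbp1 was therefore distinctly higher in the first cell type, while in microglia its interval held 0. Ddx60, a cofactor of RNA sensing, went from 19.8 to 31.1 CPM in monocytes and macrophages (0.65 [0.52 to 0.78]). Ifih1, which encodes the long double-stranded RNA sensor MDA5, had 88.2 and 131 CPM there (0.57 [0.51 to 0.64]). Ddx58, the gene of RIG-I, and Dhx58, the gene of LGP2, were the least different sensors, at 0.39 [0.32 to 0.46] and 0.37 [0.30 to 0.44]. In microglia Dhx58 stood at 67.5 and 65.4 CPM (−0.05 [−0.17 to 0.08]), a value without a direction beyond counting error.

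The ISG15 system attaches the ubiquitin-like protein ISG15 to other proteins, with Herc6 as a ligase and Usp18 as the enzyme that removes it and that also restrains the receptor. All 3 genes were in monocytes and macrophages at least 1.5-fold higher in the Glut5 KO library (6.44% of all genes). Isg15 had 1532 CPM in wildtype and 2352 in Glut5 KO (0.62 [0.60 to 0.63]). Usp18 had 157 and 254 CPM (0.70 [0.65 to 0.74]), and Herc6 had 55.6 and 101 CPM (0.87 [0.79 to 0.94]). The effector, its ligase and its remover thus stood higher together. In microglia Isg15 was close between the libraries, at 880 and 946 CPM (0.10 [0.07 to 0.14]), and Usp18 was the highest of the 3 at 0.53 [0.44 to 0.61], with 116 and 167 CPM.

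The IFIT family, whose proteins bind foreign RNA and hold back its translation, differed most of all role groups in both cell types. All 5 IFIT genes were at least 1.5-fold higher in monocytes and macrophages (6.44% of all genes), with a median of 0.89, and in microglia 4 of 5 (4.77%), with a median of 0.67. Ifit3 had 224 CPM in wildtype and 417 in Glut5 KO monocytes and macrophages (0.89 [0.86 to 0.93]), and 154 and 234 CPM in microglia (0.60 [0.53 to 0.67]). Ifit2 had 133 and 251 CPM in the first (0.92 [0.87 to 0.97]) and 103 and 137 CPM in the second (0.41 [0.31 to 0.50]), so it was the IFIT gene that stayed under 1.5-fold in microglia. Ifit1 had 95.8 and 153 CPM in monocytes and macrophages (0.67 [0.62 to 0.73]), and its microglial log2 ratio was the same 0.67 [0.54 to 0.81] at a lower level of 46.2 and 73.7 CPM. Ifit3b had 45.8 and 94.9 CPM in monocytes and macrophages (1.05 [0.97 to 1.13]), the largest log2 ratio of the 33 members in that cell type. The gene pair Ifit3 and Ifit3b shared 575 transcript stretches of the 91-base read length, 34.7% of those of Ifit3 and 30.1% of those of Ifit3b, so the split of UMIs between them is uncertain. Ifit1bl1 was scarce in microglia, with 61 and 76 UMIs (3.08 and 5.73 CPM, 0.89 [0.39 to 1.41]).

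The OAS enzymes make oligoadenylates, the signal for RNA decay, and the OAS-like proteins are their relatives. Monocytes and macrophages had 3 of the 5 OAS genes at least 1.5-fold higher (6.44% of all genes), and microglia 0 (4.77%). Oas3 was the highest in the first, at 59.3 and 109 CPM (0.88 [0.81 to 0.95]). Oasl1 followed at 157 and 261 CPM (0.73 [0.69 to 0.78]). Oasl2 had 210 and 315 CPM (0.59 [0.55 to 0.63]), just past 1.5-fold. Oas1a was the least different of the family in both cell types, at 174 and 207 CPM in monocytes and macrophages (0.25 [0.20 to 0.30]) and at 123 and 132.5 CPM in microglia (0.10 [0.01 to 0.19]). Of the Oas1a stretches of read length, 43.2% also occur in other genes' transcripts, so its UMIs may be split or lost. Oas2 was the microglial member of this family with the largest ratio, at 24.8 and 36.9 CPM (0.57 [0.39 to 0.76]).

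Among the other direct antiviral effectors, Rsad2 and Cmpk2 lie next to each other on chromosome 12 and encode viperin, which makes a chain-terminating nucleotide, and the kinase that supplies its substrate. Rsad2 had 178 CPM in wildtype and 353 in Glut5 KO monocytes and macrophages (0.98 [0.94 to 1.02]), and 85.4 and 133 CPM in microglia (0.64 [0.55 to 0.74]). Cmpk2 had 33.6 and 67.4 CPM in monocytes and macrophages (1.0 [0.91 to 1.10]) and 17.9 and 24.7 CPM in microglia (0.47 [0.24 to 0.69]). These neighbours were among the members with the largest ratios in monocytes and macrophages. Isg20, an exonuclease gene, had 108 and 180 CPM there (0.74 [0.69 to 0.79]). Bst2, which encodes a tether that holds budding virus on the cell, was nearly level by comparison, with 1372 and 1543 CPM in monocytes and macrophages (0.17 [0.15 to 0.19]) and 1506 and 1446 CPM in microglia, where it was slightly lower in the Glut5 KO library (−0.06 [−0.09 to −0.03]).

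The further induced genes spread widest. Ifi44 had 20.8 and 42.0 CPM in monocytes and macrophages (1.02 [0.90 to 1.14]), and Slfn4, a myeloid Schlafen gene, had 82.0 and 165 CPM (1.01 [0.95 to 1.07]). Ifi27l2a, a mitochondrial protein gene, differed least of the 33 members in that cell type, at 2275 and 2493 CPM (0.13 [0.12 to 0.15]). In microglia Ifi27l2a went the other way, at 1975 and 1695 CPM (−0.22 [−0.24 to −0.20]). Slfn4 had the largest microglial ratio, 1.57 [1.14 to 2.03], on 66 and 132 UMIs (3.33 and 9.95 CPM), a level far under the 82.0 and 165 CPM of monocytes and macrophages. Xaf1, Rtp4, Slfn5, Parp14 and Trim30a lay between 0.42 and 0.69 in monocytes and macrophages and between 0.18 and 0.51 in microglia. The count for all 8 further induced genes was 3 at least 1.5-fold higher in monocytes and macrophages (6.44% of all genes) and 1 in microglia (4.77%).

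The sum over the 33 members was 9315 CPM in wildtype and 13145 CPM in Glut5 KO monocytes and macrophages (0.50 [0.49 to 0.50]), and 7042 and 7459 CPM in microglia (0.08 [0.07 to 0.09]). Ifi27l2a, Isg15 and Bst2 had the most UMIs of the members and carry much of these sums. Without those 3 genes the log2 ratio of the sum was 0.71 in monocytes and macrophages and 0.33 in microglia.

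Conventional dendritic cells, which carry tumour antigen to T cells, held higher levels of most members in the Glut5 KO library. In cDC1 the median was 0.60, against 0.09 over all genes, with 17 of 33 members at least 1.5-fold higher (12.8% of all genes) and 0 lower (3.93%). In cDC2 it was 0.51, against 0.01, with 15 of 33 higher (6.32%) and 0 lower (4.30%). Irf7 stood in cDC1 at 1001 CPM in wildtype and 1537 in Glut5 KO (0.62 [0.56 to 0.68]) and in cDC2 at 787 and 1198 CPM (0.61 [0.56 to 0.65]), so the amplifying factor was higher by like amounts in both. The largest cDC1 ratios were those of Ddx60, 9.21 and 23.2 CPM (1.32 [0.73 to 1.95]), and Ifi44, 24.1 and 59.7 CPM (1.30 [0.94 to 1.68]). In cDC2 Slfn4 led, with 19.6 and 46.8 CPM (1.25 [0.99 to 1.52]), followed by Ifi44 with 23.1 and 47.1 CPM (1.02 [0.78 to 1.28]). Irf9 was lowest in both, at −0.20 [−0.48 to 0.08] in cDC1 and 0.08 [−0.08 to 0.25] in cDC2, and both intervals held 0.

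Migratory dendritic cells are the mature state marked by Ccr7. Their median was −0.02, with 1 of 33 members at least 1.5-fold higher (7.34% of all genes) and 2 lower (7.49%), shares no larger than those of all genes. Isg15 was lower in the Glut5 KO library, at 2042 and 1776 CPM (−0.20 [−0.27 to −0.13]), while Irf7 was higher, at 596 and 727 CPM (0.29 [0.17 to 0.40]). Cmpk2, with 54 and 22 UMIs, and Ifit1bl1, with 62 and 26 UMIs, were the lower pair, at −0.85 [−1.65 to −0.13] and −0.81 [−1.54 to −0.14]. The higher member was Ddx60 with 27 and 32 UMIs, and its interval, −0.11 to 1.47, held 0.

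Plasmacytoid dendritic cells, the specialised producers of type I interferon, had a median of 0.29 with 5 of 33 members at least 1.5-fold higher (9.19% of all genes) and 0 lower (8.96%). Rsad2 had 110 CPM in wildtype and 215 in Glut5 KO (0.96 [0.65 to 1.28]), and Irf7 had 1230 and 1730 CPM (0.49 [0.40 to 0.59]). Isg15 was level there, at 1319 and 1324 CPM (0.01 [−0.09 to 0.10]), so the 2 genes that stood higher were not joined by the most abundant effector of the ISG15 system.

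T cells had a median of 0.19 with 3 of 33 members at least 1.5-fold higher (7.65% of all genes) and 0 lower (6.96%), a count near the share of all genes. Ifi27l2a had 2719 CPM in wildtype and 4963 in Glut5 KO T cells (0.87 [0.84 to 0.90]). Ifi44 had 9.65 and 22.0 CPM (1.18 [0.72 to 1.68]) and Cmpk2 had 19.3 and 34.8 CPM (0.85 [0.51 to 1.20]). NK cells had a median of 0.13, with 4 members at least 1.5-fold higher (6.77%) and 2 lower (7.30%). The higher ones were Ifi44 (0.90 [0.35 to 1.48]), Oas3 (0.77 [0.30 to 1.27]), Herc6 (0.75 [0.35 to 1.16]) and Trim30a (0.59 [0.36 to 0.82]). Slfn4, with 37 and 15 UMIs, was lower in the Glut5 KO library (−1.40 [−2.40 to −0.53]), as was Ifi27l2a at 767 and 556 CPM (−0.47 [−0.58 to −0.35]). The same gene, Ifi27l2a, therefore went in opposite directions in the T and NK barcodes. The differences between cell types were not tested, since each rests on 1 library per genotype.

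**Figure D2:**
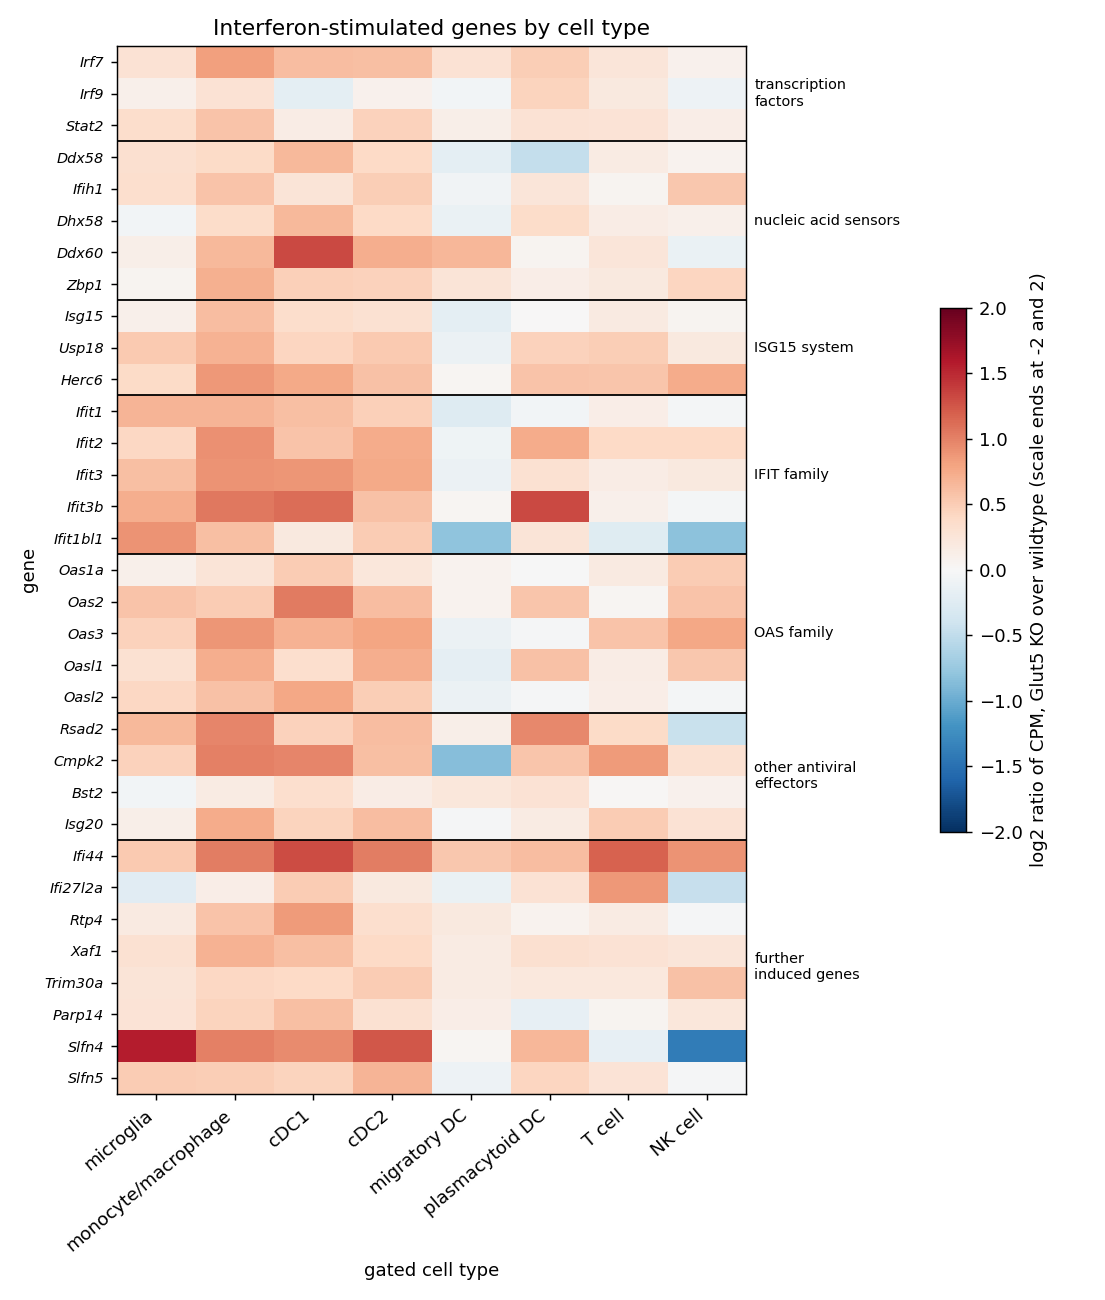
Log2 ratio of CPM, Glut5 KO over wildtype, for the 33 genes (rows, ordered by role) in the 8 gated cell types (columns), on a colour scale that ends at −2 and 2. The monocyte/macrophage column is positive in every row, the migratory dendritic cell column is mixed with a median of −0.02, and Slfn4 in NK cells is the lowest square at −1.40.

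A small set of barcodes led by collagen genes passed the selection for CD45 and was gated as stromal. It held 225 wildtype and 160 Glut5 KO barcodes. The name rests on marker genes, and whether the host or the implanted tumour line gave these barcodes was not tested. The members stood higher in the Glut5 KO library there as well, with a median log2 ratio of 1.07 against −0.02 over all genes, and 31 of 33 members were at least 1.5-fold higher (9.28% of all genes) and 0 lower (6.49%). Isg15 had 966 CPM in wildtype and 2092 in Glut5 KO (1.12 [1.05 to 1.19]), Ifit1 had 136 and 426 CPM (1.64 [1.47 to 1.82]), and Usp18 had 34.1 and 99.6 CPM (1.54). Bst2 again differed little, at 889 and 1109 CPM (0.32). The member sum of these barcodes, 3716 and 7051 CPM, was below that of monocytes and macrophages in each library.

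Nearly all stromal barcodes with a sex call were female, 175 and 109, against 3 and 1 male. In the female ones the median was 1.18 with 29 of 30 measured members higher (10.0%). The leukocyte gene Ptprc, which encodes CD45, had 24.5 and 38.5 CPM in the stromal barcodes, and the collagen gene Col1a1 1388 and 2038 CPM. Median depths were 13348 and 7274 UMIs, and the part of depth or of adhering leukocytes in these ratios was not tested.

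The level of a member depended on the cell type as well as on the library. Monocytes and macrophages were the highest of the 8 types for 12 of 33 members in the wildtype library and for 20 of 33 in the Glut5 KO library. Plasmacytoid dendritic cells were highest for 6 in each. Irf7 was highest in plasmacytoid dendritic cells in both libraries, at 1230 and 1730 CPM, and lowest in NK cells, at 446 and 476 CPM. In the wildtype library its next type was cDC1 at 1001 CPM, and in the Glut5 KO library it was monocytes and macrophages at 1583 CPM. Bst2 also peaked in plasmacytoid dendritic cells, of which it is a known marker, at 3493 and 4259 CPM. Isg15 was highest in wildtype migratory dendritic cells at 2042 CPM, but in the Glut5 KO library in monocytes and macrophages at 2352 CPM, with cDC2 next at 2230 CPM. Ifit2, Ifit3 and Rsad2 were highest in monocytes and macrophages in both libraries, with intervals that did not reach those of the next type. For Ifit1 the top 2 types, cDC2 and monocytes and macrophages, could not be told apart in the Glut5 KO library, at 154 and 153 CPM. Ddx58 was highest in NK cells, at 88.5 CPM in wildtype, and at 92.9 CPM in Glut5 KO, where its interval overlapped that of monocytes and macrophages at 88.2 CPM.

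Over the 16 pools made by 8 cell types and 2 libraries, members varied in how closely they followed the mean of the other members. Parp14 and Ifit3b had the highest Pearson correlation with that mean, 0.90 each, and Ifih1 and Rsad2 followed at 0.88. Ddx58 had the lowest, 0.19, then Irf9 with 0.27, Isg20 with 0.35 and Trim30a with 0.36. The pools share libraries and their depth, so these values describe the pools and carry no test.

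The monocyte/macrophage difference was unevenly spread over its clusters. Cells were clustered without the members among the genes used, and the clusters are called by number. Cluster 8, led by Chil3, Hp and Fn1 and also by the members Slfn4 and Rsad2, had the highest member sum, 16976 CPM over 624 wildtype barcodes and 30652 CPM over 455 Glut5 KO barcodes. Its median ratio was 0.95, with 23 of 33 members at least 1.5-fold higher (6.89% of all genes). Irf7 in cluster 8 had 1625 and 3614 CPM (1.15), Ifit3 had 583 and 1447 CPM (1.31), and Rsad2 had 684 and 1605 CPM (1.23). Each of these 3 log2 ratios was above that over all monocytes and macrophages. Cluster 7, led by the division genes Birc5, Mki67 and Top2a, had the largest median, 1.07, with 30 of 33 members higher (7.07%) and sums of 6052 and 10360 CPM over 373 and 173 barcodes. Its sexes were unevenly filled, and the median was 0.96 in its female barcodes (73 wildtype and 106 Glut5 KO) and 0.28 in its male barcodes (221 and 35). Clusters 6, 10 and 1 had medians of 0.74, 0.52 and 0.40. Cluster 3, most of whose gated barcodes were microglia, had 140 and 176 monocyte/macrophage barcodes with sums of 6955 and 9602 CPM, a median of 0.79, and 17 of 28 measured members higher (14.5%).

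The largest cluster by barcodes, cluster 0 with 1172 wildtype and 1622 Glut5 KO barcodes, already had a high sum in the wildtype library, 15370 CPM, and 15620 CPM in the Glut5 KO library. Its median was 0.12 and none of the 33 members was past 1.5-fold in either direction (6.75% of all genes higher, 4.51% lower). The sexes of cluster 0 differed in direction, with sums of 17368 and 19528 CPM and a median of 0.23 in female barcodes, and sums of 13679 and 12262 CPM and a median of −0.10 in male barcodes. Cluster 5, with 13402 and 14040 CPM, had a median of 0.14 with 2 members higher (7.64%) and 1 lower (5.26%). Cluster 15, led by Gpnmb, Fabp5 and Spp1, had 7094 and 5956 CPM and a median of −0.03 with 0 higher (8.75% of all genes) and 3 lower (7.83%). The libraries filled these clusters differently: most wildtype barcodes lay in clusters 0, 1, 8 and 10, and most Glut5 KO barcodes in clusters 0, 5, 1 and 8. With each cluster weighted by its share of wildtype UMIs in both libraries, an alternative added after the data were seen, the monocyte/macrophage median was 0.53 and 14 of 33 members were higher (6.19%). Without cluster 8, also added later, the median was 0.59 with 17 higher (6.52%) and 0 lower (8.46%).

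**Figure D3:**
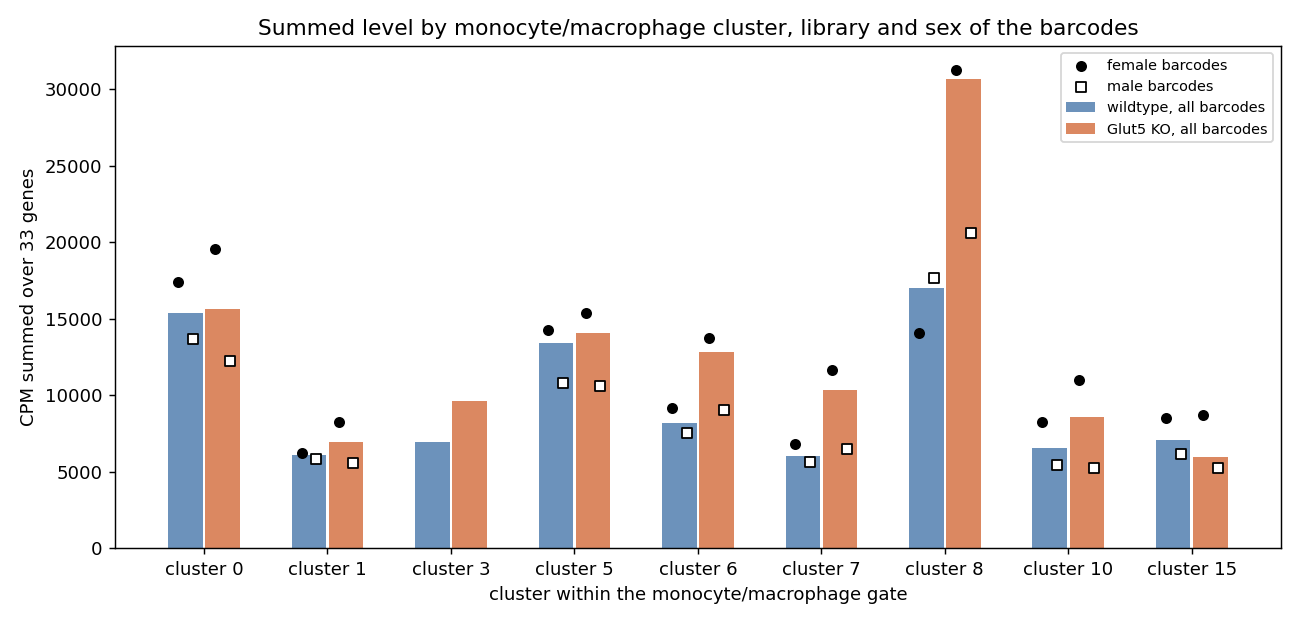
CPM summed over the 33 genes in 9 clusters of the monocyte/macrophage gate, with bars for all barcodes (blue wildtype, orange Glut5 KO), and filled circles for female and open squares for male barcodes where each library had at least 10 of them. Cluster 8 stands at 16976 CPM in wildtype and 30652 CPM in Glut5 KO, the circle at 31249 CPM and the square at 20574 CPM, while the bars of cluster 0 are level.

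Split by sex, the members' median ratio was larger in female than in male barcodes in 7 of the 8 cell types, NK cells being the other. In female microglia (682 wildtype and 562 Glut5 KO barcodes) the median log2 ratio was 0.69, with 19 of 33 members at least 1.5-fold higher (4.97% of all genes) and 0 lower (8.40%). In male microglia (455 and 281 barcodes) it was −0.23, with 0 higher (5.58%) and 3 lower (14.4%), and 7 of 33 members had a ratio above 0, against 30 of 33 over all microglia. Isg15 stood in female microglia at 807 CPM in wildtype and 1173 in Glut5 KO (0.54 [0.49 to 0.59]), and in male microglia at 923 and 610 CPM (−0.60 [−0.67 to −0.52]). Isg15 was thus higher in Glut5 KO in one sex and lower in the other, and Irf7 did the same, at 456 and 701 CPM in female and 442 and 336 CPM in male microglia. Rsad2 had 74.9 and 162 CPM in female microglia (1.11 [0.97 to 1.26]) and 99.6 and 84.8 CPM in male microglia (−0.23 [−0.44 to −0.03]). The microglial median over all barcodes, 0.33, lay between these medians of opposite sign.

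Female monocytes and macrophages numbered 978 in wildtype and 1122 in Glut5 KO, and male ones 1608 and 1024. The libraries thus differed in make-up by sex, and its part in the ratios over all barcodes was not tested. Both sexes of monocytes and macrophages had medians above 0, of 0.78 in female and 0.32 in male barcodes. At least 1.5-fold higher were 23 members in female (5.27% of all genes) but 6 in male barcodes (8.03%). None was 1.5-fold lower in either (6.90% and 10.5%). Ifit3 had 227 and 521 CPM in female (1.20 [1.13 to 1.27]) and 164 and 207 CPM in male barcodes (0.34 [0.26 to 0.42]). Rsad2 had 149 and 359 CPM in female (1.27 [1.18 to 1.35]) and 144 and 247 CPM in male barcodes (0.78 [0.70 to 0.86]). Slfn4 was a member with about the same ratio in both sexes, 1.06 [0.94 to 1.18] in female and 1.07 [0.94 to 1.20] in male barcodes. In cluster 8, the sum was 14079 and 31249 CPM in female barcodes, with a median of 1.26 and 31 members higher (11.0%), the largest female median of the clusters with at least 10 barcodes of each sex in each library. In its male barcodes, 133 and 52 in number, the sum was 17665 and 20574 CPM, the median 0.14 and 3 members were higher (12.8%).

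The dendritic and lymphoid types gave medians by sex of 0.88 in female and 0.24 in male cDC1, 0.81 and 0.41 in cDC2, 0.37 and 0.14 in plasmacytoid dendritic cells, and 0.33 and 0.16 in T cells. Migratory dendritic cells stood at −0.04 and −0.30 and NK cells at −0.14 and −0.05. Female and male cDC1 barcodes numbered 68 and 121 in wildtype but 121 and 66 in Glut5 KO. Female cDC1 had 26 of 33 members at least 1.5-fold higher (10.4% of all genes) and female cDC2 23 of 33 (8.23%). In male barcodes 5 of 31 measured members were higher in cDC1 (22.8%) and 5 of 33 in cDC2 (9.10%), shares that did not pass or only slightly passed those of all genes.

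Within the Glut5 KO library, female microglia had higher members than male microglia, with a median log2 ratio of female over male of 0.82, and 22 of 33 members at least 1.5-fold higher (9.35% of all genes). In the wildtype library that median was −0.13. For monocytes and macrophages the female-over-male median was 0.38 in wildtype and 0.76 in Glut5 KO. The number of animals behind either sex is not known, so these differences were not tested.

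**Figure D4:**
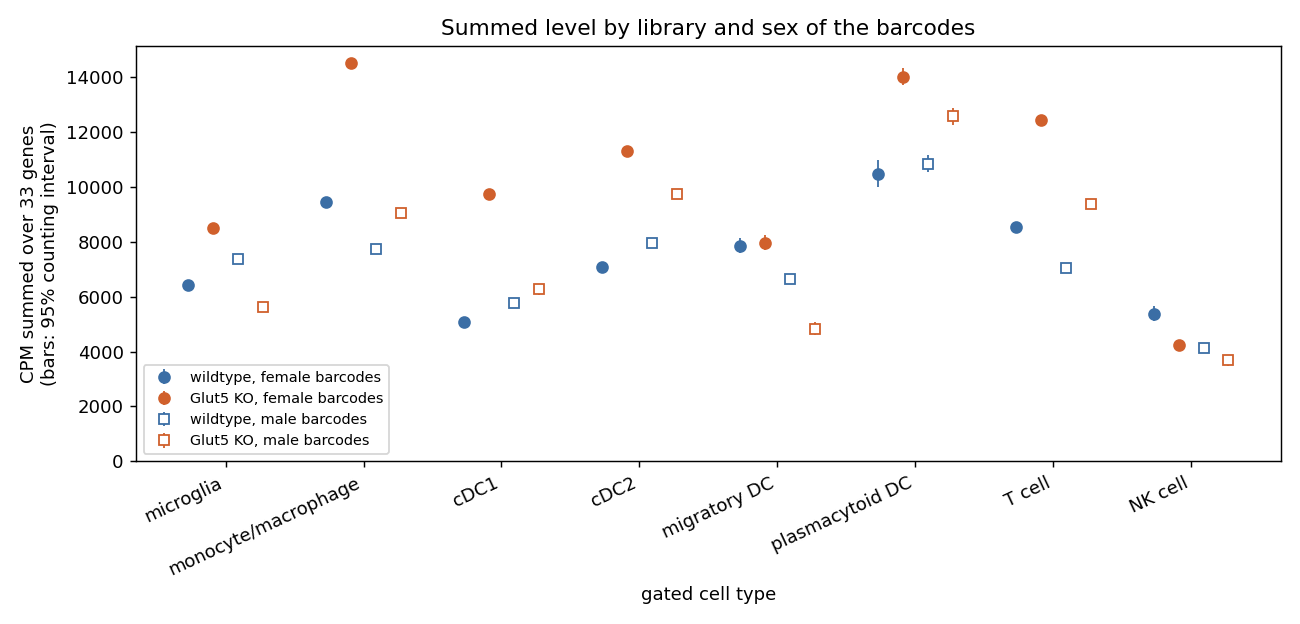
CPM summed over the 33 genes in the 8 cell types, by library (blue wildtype, orange Glut5 KO) and sex of the barcodes (filled circles female, open squares male), with bars for the 95% counting interval. In microglia the female points are 6406 CPM in wildtype and 8483 CPM in Glut5 KO, and the male points run the other way, from 7381 to 5614 CPM.

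The shift was also read barcode by barcode after barcodes with at least 1000 UMIs were thinned to that number. Shallower ones were left out, 36 wildtype and 229 Glut5 KO barcodes in monocytes and macrophages and 76 and 166 in microglia, more in the Glut5 KO library in both. In monocytes and macrophages the median number of member UMIs per 1000 was 8 in wildtype and 12 in Glut5 KO, and barcodes with at least 20 were 17.1% and 26%. In female barcodes that share was 15.6% and 30.5%, and in male barcodes 11.9% and 14.0%. In microglia the median was 6 in both libraries and the share with at least 20 was 3.70% and 3.57%, but female microglia went from a median of 5 to 7 and male microglia from 6.5 to 4. The distribution as a whole stood higher in Glut5 KO monocytes and macrophages, while in microglia the sexes went in opposite directions.

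**Figure D5:**
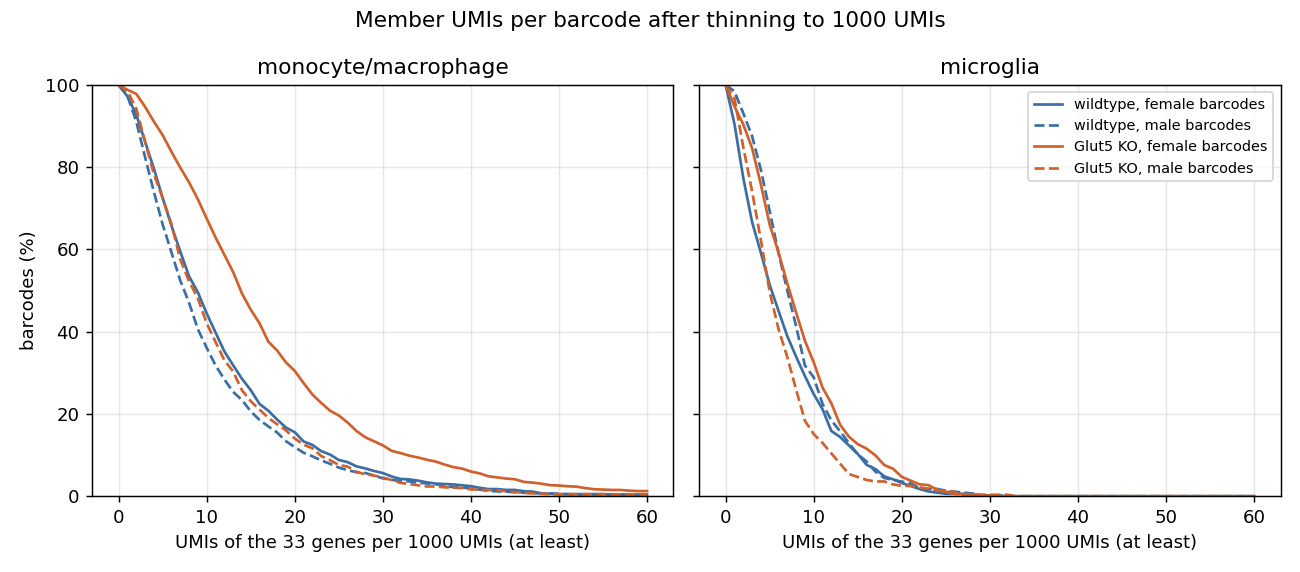
Share of barcodes (%) with at least the number of member UMIs on the horizontal axis, after thinning barcodes with at least 1000 UMIs to that number, in microglia and in monocytes and macrophages, by library (colour) and barcode set (line style). The Glut5 KO curve of female monocytes and macrophages lies highest, with 30.5% of barcodes at 20 or more, and the male microglia curve of Glut5 KO lies lowest there, at 2.52%.

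The share of monocyte/macrophage barcodes with a UMI of Isg15 was 57.6% in wildtype and 69.1% in Glut5 KO after thinning (90.1% and 91.4% before). For Ifit3 it was 18.5% and 26.6% (47.3% and 56.5% before), and for Rsad2 13.2% and 20.8% (34.8% and 46.3% before). These 3 members were thus found in a larger share of the Glut5 KO barcodes at equal depth. NK cells, the type with the lowest member sum, had thinned shares of 23.9% and 29.0% for Isg15, 5.67% and 3.74% for Ifit3, and 4.78% and 5.46% for Rsad2. Median depths before thinning were 8429 and 7398 UMIs in monocytes and macrophages and 3321 and 3333 in NK cells. In microglia, with median depths of 8925 and 6284 UMIs, the thinned shares were 42.4% and 43.0% for Isg15, 12.3% and 15% for Ifit3, and 5.01% and 6.39% for Rsad2, the last close to the NK values.

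Members tended to be found together in single barcodes. Thinned monocyte/macrophage barcodes with an Rsad2 UMI held on average 22.6 UMIs of 31 other members in wildtype and 24.5 in Glut5 KO, against 9.60 and 11.9 in barcodes without one. Ifit3 was found in 51.8% and 54.5% of the Rsad2-positive barcodes, and in 13.5% and 19.3% of the rest. In microglia the sums were 12 and 11.2 UMIs with Rsad2 and 6.94 and 6.84 without.

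Upstream of the members, the interferon genes themselves were scarce. Ifnb1, which encodes interferon beta, had 180 UMIs in 39 wildtype barcodes and 82 UMIs in 23 Glut5 KO barcodes. In microglia it had 36 and 4 UMIs (1.82 and 0.302 CPM, −2.44 [−4.54 to −1.11]). In monocytes and macrophages it had 91 and 42 UMIs (−0.72 [−1.29 to −0.19]), of which 33 and 17 came from 1 barcode of each library. Both intervals lay below 0, while the barcodes with an Ifnb1 UMI numbered 14 and 3 in microglia and 12 in each library in monocytes and macrophages. Female monocytes and macrophages had 5 UMIs in 1 wildtype barcode and 10 in 5 Glut5 KO barcodes (0.72 [−0.89 to 2.69]). Male ones had 46 and 19 UMIs in 5 and 3 barcodes (−0.28 [−1.15 to 0.50]). In cDC2 there were 4 and 12 UMIs in 2 and 3 barcodes (1.37 [−0.24 to 3.57]). All of these intervals held 0. The 3 and 2 UMIs of cDC1 came from 1 barcode in each library. Any link of Ifnb1 to the member ratios was not tested. The other 17 type I interferon genes had 4 UMIs in wildtype and 2 in Glut5 KO together, with 13 of them at 0 in both. Ifnl2, a type III interferon gene, had 20 and 37 UMIs in 8 and 12 barcodes.

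In monocytes and macrophages Ifnar1 and Ifnar2, the receptor subunits, had log2 ratios of 0.12 [0.05 to 0.18] and 0.04 [0.01 to 0.07]. Ifnlr1, the scarce type III receptor gene, was at least 1.5-fold lower, at 2.89 and 1.51 CPM (−0.93 [−1.43 to −0.46]). Of 18 genes for the induction of interferon 1 was at least 1.5-fold higher (5.56%, against 6.44% of all genes), Irf1, at 159 and 279 CPM (0.81 [0.76 to 0.85]). Of 10 inhibitors of the pathway 2 were higher (6.44% of all genes), Socs1, at 68.5 and 117 CPM (0.77 [0.71 to 0.84]), and the member Usp18.

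Genes better known for interferon-gamma stood higher in monocytes and macrophages as well. The GTPases induced by interferon-gamma, which attack intracellular pathogens, had a median of 0.81 in monocytes and macrophages with 11 of 14 at least 1.5-fold higher (6.44% of all genes), and a median of 0.04 in microglia with 0 of 14 (4.77%). Iigp1 had 58.7 and 137 CPM in monocytes and macrophages (1.22 [1.15 to 1.29]) but 155 and 151 CPM in microglia (−0.03 [−0.11 to 0.05]). Of 11 other genes that lean to interferon-gamma, 10 were higher in monocytes and macrophages (6.44% of all genes, median 0.94), among them Ciita, the master factor of MHC class II, at 23.7 and 52.4 CPM (1.14 [1.03 to 1.25]), and the nitric oxide synthase gene Nos2 at 2.76 and 13.4 CPM (2.27 [1.99 to 2.58]). In microglia this second list had a median of 0.43 with 2 of 10 measured genes higher (4.77%). The members are also induced by interferon-gamma to varying degrees, and which interferon acted was not tested.

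Other measures also differed between the libraries, and not in the same way in the 2 sexes. The 6 cell division genes were all at least 1.5-fold lower in Glut5 KO monocytes and macrophages (8.19% of all genes), with sums of 383 and 204 CPM. In Glut5 KO microglia all 6 were that much lower as well (7.56%), with sums of 471 and 237 CPM. In female monocytes and macrophages alone these sums were 321 and 366 CPM, and in male ones 527 and 173 CPM. The 9 genes of dissociation and early stress summed to 7027 and 8639 CPM in monocytes and macrophages, with 0 of 9 past 1.5-fold, to 6324 and 6859 CPM in female barcodes, and to 6632 and 9437 CPM in male barcodes. NK cell markers in the monocyte/macrophage gate summed to 43.7 and 14.4 CPM, with 7 of 8 at least 1.5-fold lower (8.19% of all genes) and none of the 8 at 0. T cell markers there summed to 29.3 and 27.2 CPM. Other lists stood higher there: of the B cell markers 6 of 7 were at least 1.5-fold higher (6.44% of all genes) at sums of 47.2 and 50.4 CPM, of the plasma cell markers 5 of 6 measured at 45.2 and 62.9 CPM, and of the oligodendrocyte markers 3 of 3 measured at 23.9 and 37.7 CPM, with Mog at 0. In microglia 5 of 8 T cell markers were higher (4.77% of all genes) at 13.6 and 30.2 CPM, 4 of 5 measured neutrophil markers at 107 and 159 CPM, and 3 of 3 measured oligodendrocyte markers at 41.5 and 77.9 CPM. In female monocytes and macrophages, whose division genes summed to 321 and 366 CPM, the members' median was 0.78. In male ones, with division sums of 527 and 173 CPM, it was 0.32. The part of these measures in the member ratios was not tested.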

How the data were processed

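Both libraries, 1 per genotype, come from the 5′ v2 chemistry of 10x, with 16000 cells loaded for each, per the labels' protocols. The submitters' processing notes name Cell Ranger 3.1.0 and the genome build mm10, while Cell Ranger 7.0.1 stands in the headers of the deposited tables. Whether intron reads were counted is not stated by either. The deposited files hold raw UMI counts that are not normalized, per the file headers. Here barcodes were filtered and classed with a marker gate: for each class the sum of log-scaled marker levels was rescaled over clusters, and a barcode needed at least 0.3 and a lead of 0.1. These limits, and the members and lists, were chosen with earlier results of these data known. Doublets were kept, apart from the gate's margin. Clusters came from scanpy 1.11.5 and leidenalg 0.10.2 (2000 variable genes without the members, 30 components, 20 neighbours, resolution 1). Ratios are log2 of CPM with 0.5 added to each count, for genes with at least 20 UMIs over both libraries. Intervals were Poisson (levels), Clopper-Pearson (shares) and conditional binomial (ratios), with scipy 1.17.1. The log2 ratio was run on simulated counts of the monocyte/macrophage class, and the intervals were not checked in this way. All members could be named, and other pathway genes came from fixed lists, of which the list of receptors and signalling genes is given without its count because 1 of its genes is not reported here. Alternatives covered cell types by clusters, doublet removal, scaling, barcode weights, thinning, sex, filters and gate width.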

Additional observations from a re-analysis of the deposited data

Results flagged for a closer look

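Slfn4 in NK cells had a log2 ratio of −1.40, while in 5 other cell types it was higher in the Glut5 KO library with intervals above 0. Cmpk2 in migratory dendritic cells stood at −0.85, opposite to 4 other cell types, and Ifit1bl1 in the same cells at −0.81, opposite to 2 others. These differences between cell types were not tested and rest on 15 to 62 UMIs per library. In microglia the members' median was 0.69 in female and −0.23 in male barcodes, opposite directions in the 2 sexes, and that difference was not tested. Barcodes outside every gate, 2274 wildtype and 2430 Glut5 KO, entered no comparison, and their member sum had a log2 ratio of 0.46, with 6998 and 9611 CPM.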

How the results depend on the processing

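No paired analysis was possible because each genotype had 1 library. Over the alternatives, those by sex included, the monocyte/macrophage median ranged from 0.32 to 0.78, the microglial from −0.23 to 0.69, that of cDC1 from 0.24 to 0.88, of cDC2 from 0.33 to 0.81, of migratory dendritic cells from −0.30 to 0.15, of plasmacytoid dendritic cells from 0.14 to 0.37, of T cells from 0.04 to 0.37 and of NK cells from −0.14 to 0.37. A median is said to move when it changed by more than the half-width of its middle member's counting interval, and a count when it changed by over 1.5 times. By these limits totals without mitochondrial, ribosomal, immunoglobulin and haemoglobin genes moved no median or count. Adding 5 to each count moved no median but left 3 members higher in plasmacytoid dendritic cells (3.92% of all genes). The following medians and counts of members at least 1.5-fold higher or lower moved, and the cause was not tested. A percentage after a count is the share of all genes under that alternative. Over the alternatives the share of all genes that much higher ran from 4.27% to 8.56% in microglia, 5.27% to 8.03% in monocytes and macrophages, 7.60% to 25.5% in cDC1, 4.87% to 11.6% in cDC2, 6.67% to 12.7% in migratory and 3.92% to 16.0% in plasmacytoid dendritic cells, 5.73% to 15.1% in T cells and 4.36% to 16.8% in NK cells, and the share that much lower from 2.02% to 17.7% over all 8 types. With cell types from named clusters, 3 members were higher in microglia (4.58%), 9 in cDC2 (5.84%), 3 in migratory (6.67%) and 3 in plasmacytoid dendritic cells (7.33%). In T cells 6 were higher (median 0.37, 6.98%) and in NK cells 7 of 32 measured (7.01%). Lower were 1 in cDC1 (5.81%), 0 in migratory dendritic cells (8.09%) and 1 in NK cells (6.49%). Without the 8% of barcodes with the highest doublet scores, 8 were higher in cDC2 (6.64%), 3 in migratory dendritic cells (9.64%) and 7 of 32 in NK cells (7.96%). In that setting 0 were lower in migratory dendritic cells (6.97%), 2 in T cells (8.73%) and 1 in NK cells (6.25%). Centred on the median of all genes, 11 were higher in cDC1 (9.79%). With each barcode weighing the same, 2 were higher in microglia (8.56%), 12 in monocytes and macrophages (median 0.50, 7.84%) and 7 in cDC2 (median 0.33, 11.6%). In migratory dendritic cells 3 were higher (12.7%) and in NK cells 9 (14.3%). In plasmacytoid dendritic cells 1 was lower (11.7%), in T cells 1 (median 0.045, 8.33%) and in NK cells 1 (9.08%). Thinned to 1000 UMIs, 13 were higher in monocytes and macrophages (median 0.47, 5.84%), 10 of 28 measured in cDC1 (25.5%) and 7 in cDC2 (10.5%). In migratory dendritic cells 0 of 26 were higher (10.2%) and in plasmacytoid ones 8 of 25 (15.2%). In T cells 6 of 32 were higher (median 0.070, 15.1%) and in NK cells 7 of 26 (13.5%). Lower were 1 in cDC1 (10.2%), 0 in migratory (9.90%) and 3 in plasmacytoid dendritic cells (13.4%), 1 in T cells (8.31%) and 0 in NK cells (8.22%). The thinned shares of monocytes and macrophages with a UMI were 57.6% and 69.1% for Isg15, 18.5% and 26.6% for Ifit3, and 13.2% and 20.8% for Rsad2, and those of microglia 42.4% and 43.0%, 12.3% and 15%, and 5.01% and 6.39%. In female barcodes, 19 were higher in microglia (median 0.69, 4.97%), 26 in cDC1 (0.88, 10.4%) and 23 in cDC2 (0.81, 8.23%). In migratory dendritic cells 3 of 28 measured were higher (9.40%) and in plasmacytoid ones 10 of 31 (14.5%). In T cells 9 were higher (0.33, 13.6%) and in NK cells 1 of 30 (16.8%), while 3 were lower in plasmacytoid dendritic cells (17.7%) and 7 in NK cells (13.7%). In male barcodes, the microglial median turned to −0.23 with 0 higher (5.58%) and 3 lower (14.4%). Male barcodes had 6 higher in monocytes and macrophages (median 0.32, 8.03%), 5 of 31 in cDC1 (0.24, 22.8%) and 5 in cDC2 (9.10%). In plasmacytoid dendritic cells 3 of 29 were higher (13.4%), and in NK cells 0 of 28 (11.8%). Lower were 1 in cDC1 (6.67%), 8 of 30 in migratory (10.9%) and 1 in plasmacytoid dendritic cells (10.6%), 1 in T cells (10.0%) and 4 in NK cells (11.4%). With at least 1000 genes and under 5% mitochondrial UMIs, 0 were higher in migratory dendritic cells (7.80%). With a stricter gate, 3 were higher in microglia (median 0.19, 4.27%), 4 in migratory (9.71%) and 9 of 32 in plasmacytoid dendritic cells (9.49%). In that setting 1 was lower in migratory dendritic cells (6.48%) and 1 in T cells (6.80%), and the monocyte/macrophage median was 0.51. Among members with at least 100 UMIs, 0 were higher and 0 lower in migratory dendritic cells and 0 were lower in NK cells, by construction from fewer genes. Without the 3 members with the most UMIs, the log2 ratio of the sum was 0.33 in microglia, 0.71 in monocytes and macrophages, 0.55 in cDC1, 0.54 in cDC2, 0.055 in migratory and 0.37 in plasmacytoid dendritic cells, 0.26 in T cells and 0.22 in NK cells. Members that were at least 1.5-fold higher or lower over all barcodes and turned direction were Cmpk2 in migratory dendritic cells under named clusters (0.52), Ifit1bl1 without high doublet scores in migratory dendritic cells (0.017) and NK cells (0.14), and, with each barcode weighing the same, Slfn4 in plasmacytoid dendritic cells (−0.64) and Ifit1bl1 in NK cells (0.68). Thinning turned Cmpk2 in cDC2 to −0.075. Female barcodes turned Ifit1bl1 in migratory dendritic cells (0.73) and Slfn4 in plasmacytoid dendritic cells (−0.24), and male barcodes turned Ifit1 (−0.12), Ifit3 (−0.043) and Rsad2 (−0.23) in microglia, Ifit1bl1 in monocytes and macrophages (−0.18), Cmpk2 in cDC1 (−1.88), and Herc6 (−0.047) and Ifi44 (−1.03) in NK cells. Members under 1.5-fold that turned are not listed singly, and in male microglia 7 of 33 members were above 0, against 30 of 33 over all microglia. Stromal barcodes were recomputed for female barcodes, and the other alternatives were not run for them. Depth limits the scarce members: under 100 UMIs over both libraries, as in the migratory and NK barcodes, intervals span more than 1 log2 unit.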
